A study of Mus musculus with 6 samples.

Results

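The genes described here encode the matrix of heart valves and cardiac fibroblasts other than collagen, with the receptor and transcription factors that mark the cells making it. They were taken as a named list of 35 genes, read in the whole heart of mouse embryos at embryonic day 16.5. Each gene was read through the array probe sets annotated to its symbol alone, and where several existed the brightest on average was the main one. Such a probe set was found for 33 of the 35 genes, of 18193 genes on the array. Loxl2 shared its probe sets with another symbol, and Fbn1 was not analysed here. A filter level of 6.30 log2 units (an intensity of 78.9, the median over all probe sets that are not controls) was passed by 31 of the genes and by 11113 genes in all. Scx and Tnmd lay below it.

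Heart samples of FOG-2 R3K5A embryos were compared with those of wild-type (WT) siblings, 3 samples of each genotype, 1 array per sample. Zfpm2 encodes FOG-2, which binds GATA transcription factors and modifies their activity, and the R3K5A substitutions near its amino terminus are known to remove binding of the NuRD chromatin remodelling complex. The embryos came from heterozygous crosses, their genetic background was a mixture of C57/B6 and 129 S6, and the labels give neither the zygosity of the FOG-2 R3K5A embryos (called mutant from here on) nor whether a sample was 1 heart or a pool. A sample is called a heart below, whichever it was. The spread that enters each p-value is that between these 6 samples, which may be partly technical. Values are log2 intensities unless a fold is named, and they compare hearts, not genes.

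Over all tested genes the mutant arrays correlated with each other at 0.990 to 0.995, and the WT arrays at 0.982 to 0.986. WT replicate 1 correlated at 0.984 to 0.990 with the mutant arrays, and at 0.982 and 0.986 with the other WT arrays, which correlated with each other at 0.985. Zfpm2 itself was higher in mutant hearts by 0.44 (adjusted p = 0.0134), which does not check the labels, since the allele changes amino acids. Median array intensities were 77.3 to 84.1.

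Fibroblasts and valve interstitial cells secrete this matrix. Small leucine-rich proteoglycans coat and space collagen fibrils, versican and hyaluronan form the hydrated gel of the valve cushions, and fibulins, fibrillins and elastin build elastic fibres that lysyl oxidases crosslink. Metalloproteinases and ADAMTS proteases cut these proteins, and tissue inhibitors of metalloproteinases (TIMPs) restrain them. In the late fetal heart the valve cushions are being remodelled into layered leaflets while fibroblasts populate the ventricular walls.

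Of the 31 matrix genes tested, 4 were higher in mutant hearts and 0 were lower at an adjusted p under 0.05 (limma, Benjamini-Hochberg over all genes tested). They were Bgn, Fbln2, Vcan and Timp1, and each rose by less than 2-fold. The 4 are 12.9% of the list, where 1.39% of all tested genes were called higher and 0.369% lower. At an unadjusted p under 0.05 the list had 14 genes higher (45.2%, against 8.4% of all tested genes) and 0 lower (against 6.33%). The median difference, mutant minus WT, was 0.16 log2 units over the 31 genes and -0.01 over all tested genes, and 26 of the 31 were positive (83.9%, against 47.2%). The values of every mutant heart lay above every WT heart for 11 of the 31 (35.5%, against 11.5%) and below for 0 (against 9.76%). The list was chosen with earlier results of these data known, and the part of that choice in these shares was not tested. In whole hearts, more cells of a type and more RNA per cell cannot be told apart.

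**Figure D1:**
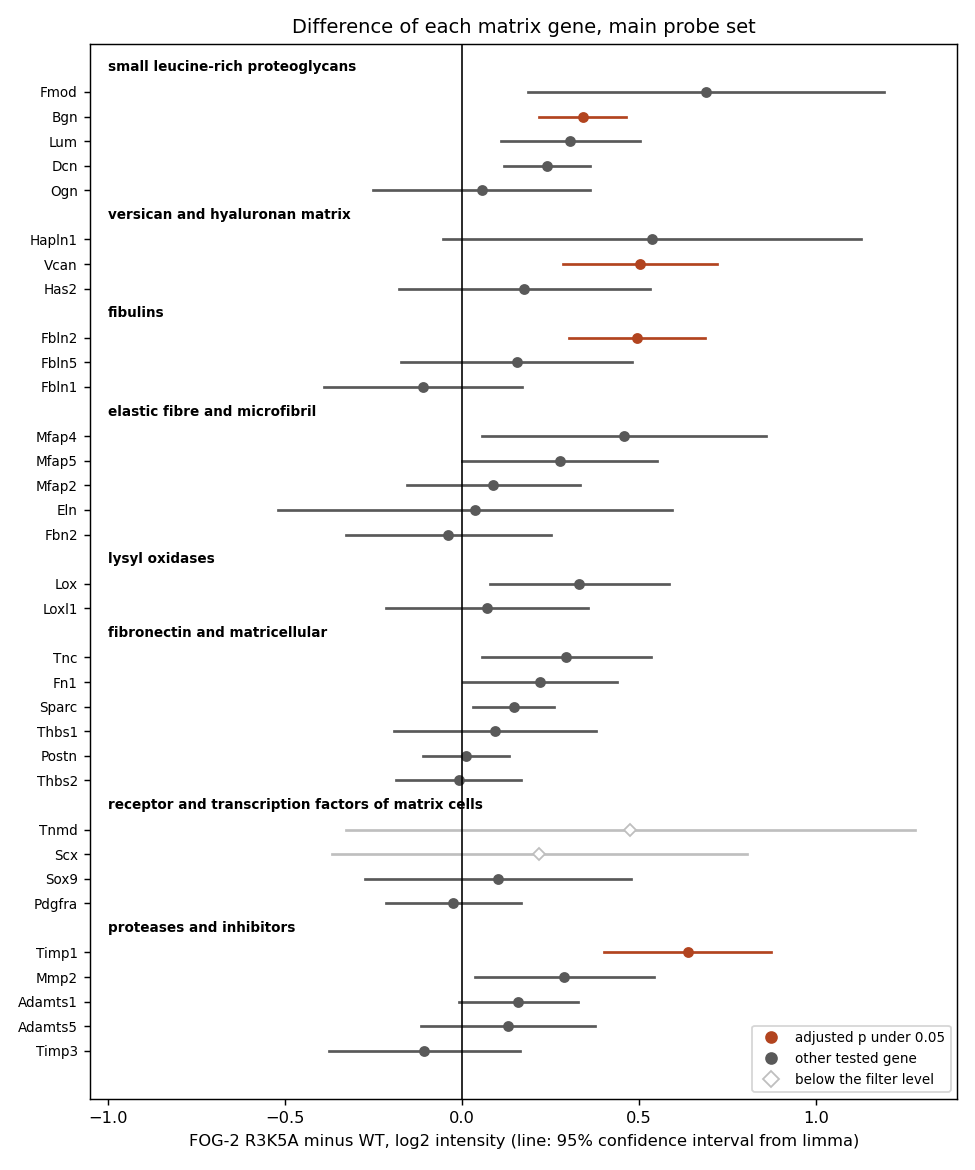
Difference in log2 intensity, mutant (FOG-2 R3K5A) minus WT, for the main probe set of each of 33 matrix genes, grouped by role, with the 95% confidence interval from limma. The 4 called genes (Bgn, Vcan, Fbln2 and Timp1, coloured) lie between 0.34 and 0.64, and open diamonds mark Scx and Tnmd, which lay below the filter level.

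The promoters of the 4 genes that rose are shown because they moved the same way in a mutant of a GATA cofactor, and each line gives 300 bases, from 250 before to 50 after the RefSeq start in GRCm38.p6, 5′ to 3′ on the strand of the gene. Capitals mark a match on either strand to the usual core of a GATA site, which was searched as AGATAA or with a last G as AGATAG, and with a leading T as TGATAA or, changed at both ends, TGATAG. The forms differ at an end base, so none overlaps another at the same place.
Bgn promoter, chrX:73483351-73483650, plus strand: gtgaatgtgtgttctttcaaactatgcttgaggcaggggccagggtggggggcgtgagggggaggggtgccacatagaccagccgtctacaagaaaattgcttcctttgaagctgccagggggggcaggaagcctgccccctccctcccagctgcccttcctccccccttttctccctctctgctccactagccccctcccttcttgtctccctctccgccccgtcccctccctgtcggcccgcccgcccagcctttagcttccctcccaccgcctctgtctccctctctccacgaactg
Fbln2 promoter, chr6:91212514-91212813, plus strand: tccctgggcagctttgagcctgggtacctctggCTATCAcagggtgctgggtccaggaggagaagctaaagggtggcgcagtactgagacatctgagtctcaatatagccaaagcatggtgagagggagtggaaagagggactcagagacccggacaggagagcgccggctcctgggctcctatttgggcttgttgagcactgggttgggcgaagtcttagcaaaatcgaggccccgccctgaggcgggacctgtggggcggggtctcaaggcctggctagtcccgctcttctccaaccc
Vcan promoter, chr13:89742463-89742762, minus strand: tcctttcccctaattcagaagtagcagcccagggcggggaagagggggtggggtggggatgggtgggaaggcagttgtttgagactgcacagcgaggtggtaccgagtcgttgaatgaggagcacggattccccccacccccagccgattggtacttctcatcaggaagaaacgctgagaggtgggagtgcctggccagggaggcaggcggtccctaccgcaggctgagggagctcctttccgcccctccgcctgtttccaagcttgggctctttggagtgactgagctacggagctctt
Timp1 promoter, chrX:20869916-20870215, plus strand: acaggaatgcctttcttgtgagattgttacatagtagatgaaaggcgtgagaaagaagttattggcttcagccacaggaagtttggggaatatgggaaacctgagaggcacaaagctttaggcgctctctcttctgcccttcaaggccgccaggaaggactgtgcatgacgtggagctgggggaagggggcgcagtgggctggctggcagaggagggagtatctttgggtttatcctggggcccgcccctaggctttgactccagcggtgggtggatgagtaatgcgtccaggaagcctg
The Fbln2 promoter held 1 match, to TGATAG on the opposite strand, with its leftmost base at position -217 from the start. The other 3 held none of these letters in this window. A promoter was listed for 18 of the 33 genes, and 2 of the 18 (11.1%, counting all listed starts of a gene) had a match, Fbln2 and Fmod. Of all 32851 listed promoters, 9778 (29.8%) had one. A match of these letters is not a measured binding site.

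Among the 5 small leucine-rich proteoglycans, all differences were positive and 1, Bgn, passed the test. Bgn encodes biglycan, a proteoglycan that binds collagen and growth factors of the TGF-beta family. It read 11.79, 11.72 and 11.83 log2 units in mutant hearts, against 11.44, 11.49 and 11.39 in WT hearts. The genotypes did not overlap, and the gap between them was wider than the spread within either. This came to 0.34 (SE 0.05, 1.27-fold, adjusted p = 0.0194). Its other two probe sets above the level gave 0.33 and 0.24.

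Dcn encodes decorin, the closest relative of biglycan among these genes. It read 12.44, 12.32 and 12.31 in mutant hearts, against 12.13, 12.17 and 12.06 in WT hearts. All 3 mutant values were the higher ones, but the difference of 0.24 (SE 0.05) did not pass (adjusted p = 0.069 by limma). Another Dcn probe set, close to the filter level, had -0.02, with 6.33, 6.12 and 6.68 in mutant hearts against 6.30, 6.31 and 6.57 in WT hearts, which overlapped. Lum encodes lumican, which regulates fibril thickness, and has a single probe set. It read 11.41, 11.14 and 11.34 in mutant hearts, against 11.06, 10.85 and 11.05 in WT hearts, a difference of 0.31 (SE 0.09, adjusted p = 0.143 by limma) with genotypes that did not overlap.

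Fmod encodes fibromodulin, another collagen-binding proteoglycan, known from tendon and valve. Its main probe set read 8.46, 8.48 and 8.67 in mutant hearts, against 8.39, 7.34 and 7.81 in WT hearts. WT replicate 1 lay next to the mutants and far above the other two WT hearts. The difference was 0.69 (SE 0.22, adjusted p = 0.19 by limma). Over the 6 fits that left out 1 array it ran from 0.44 to 0.96. Only the 0.96, without WT replicate 1, passed (adjusted p = 0.0208 by limma). Of its 6 probe sets above the level, 5 had differences from 0.38 to 0.70 and 1 had 0.01. Ogn, which encodes osteoglycin, had 0.06, with a 95% confidence interval of -0.25 to 0.36.

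Vcan encodes versican, the large hyaluronan-binding proteoglycan that fills the cushions of the developing valves. Its main probe set read 11.42, 11.49 and 11.34 in mutant hearts, against 11.14, 10.79 and 10.81 in WT hearts, and WT replicate 1 was the WT heart closest to the mutants. The difference was 0.50 (SE 0.10, 1.42-fold, adjusted p = 0.0385). The other two Vcan probe sets above the level rose more. One read 10.76, 10.83 and 10.72 in mutant hearts, against 10.19, 9.88 and 9.76 in WT hearts, a difference of 0.83 (SE 0.11). The other read 10.03, 10.04 and 9.96 in mutant hearts, against 9.36, 9.10 and 8.90 in WT hearts, a difference of 0.89 (SE 0.12). In a fit of all 19762 probe sets above the level, these 2 had an adjusted p of 0.0115 each, and the main probe set had 0.0517. Which of the versican splice forms each probe set reads was not examined.

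The hyaluronan partners of versican were dim. Has2, the main hyaluronan synthase of the embryonic heart, had a difference of 0.18 (95% confidence interval -0.18 to 0.53). Hapln1, which links versican to hyaluronan, read 6.80, 7.28 and 7.10 in mutant hearts, against 7.17, 6.23 and 6.16 in WT hearts. WT replicate 1 again read like the mutants, so the genotypes overlapped, and the difference of 0.54 (SE 0.26) did not pass (adjusted p = 0.381 by limma). Over the 6 fits that left out 1 array it ran from 0.36 to 0.86. Only the 0.86, without WT replicate 1, passed (adjusted p = 0.0325 by limma). Cd44, which encodes a cell-surface receptor for hyaluronan and is not one of the 35 genes, rose by 0.47 (SE 0.08, adjusted p = 0.0295).

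Of the 3 fibulins, glycoproteins that tie elastic fibres and basement membranes to other matrix, 1 rose. Fbln2, known for its high level in the endocardial cushions, read 10.25, 10.19 and 10.22 in mutant hearts, against 9.83, 9.78 and 9.57 in WT hearts. The mutant values lay close together and apart from all WT values. The rise was 0.50 (SE 0.09, 1.41-fold, adjusted p = 0.0272). A further Fbln2 probe set, below the filter level, had -0.23. Fbln1 read 9.83, 9.85 and 9.76 in mutant hearts, against 10.06, 10.09 and 9.61 in WT hearts, and overlapped. Its difference was -0.11 (adjusted p = 0.706 by limma), and its other probe set above the level had 0.13. Fbln5, needed to assemble elastic fibres, had 0.15 (95% confidence interval -0.17 to 0.48). Whether the response of Fbln2 differs from that of the other fibulins was not tested.

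**Figure D2:**
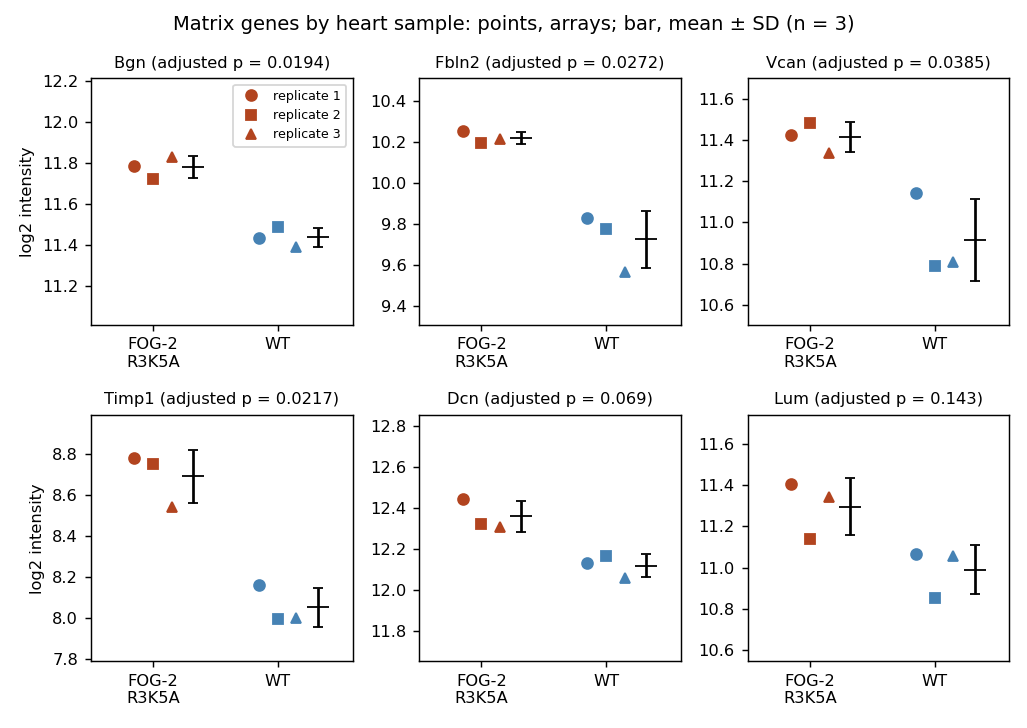
Log2 intensity of the 4 called genes and of Dcn and Lum in each heart, mutant (FOG-2 R3K5A) left of WT, with 1 symbol per replicate number and the mean ± SD of 3 arrays. In all 6 panels, which span the same height on the log2 axis, every mutant value lies above every WT value. This follows in part from the choice of panels. Dcn and Lum are the uncalled genes whose genotypes do not overlap at an unadjusted p under 0.01 (limma). Of the 31 tested genes, 11 separate in this way.

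Of the 5 elastic fibre and microfibril genes tested, 0 passed in either direction, 4 of the 5 differences being positive. Eln encodes elastin and read 10.68, 10.38 and 10.68 in mutant hearts, against 10.30, 11.23 and 10.10 in WT hearts. WT replicate 2 was the highest of all 6, as it was for the other Eln probe set (8.56, 8.10 and 8.44 in mutant hearts, against 8.18, 9.73 and 7.66 in WT hearts). The difference was 0.04 with all arrays (95% confidence interval -0.52 to 0.59) and 0.38 without WT replicate 2 (adjusted p = 0.203 by limma). Over the 6 fits that left out 1 array it ran from -0.18 to 0.38. Smooth muscle and mural cell markers did not order the WT hearts alike. Rgs5, a pericyte gene, had intensities of 1219, 2306 and 1990 in WT replicates 1, 2 and 3, and Cspg4, another pericyte gene, had 427, 475 and 398, both highest in WT replicate 2. Acta2, smooth muscle actin, had 8830, 8513 and 8378, and Tagln and Cnn1 were also highest in WT replicate 1. Myh11, the smooth muscle myosin, was below the level and read 5.08, 6.61 and 5.89 log2 units in these hearts. The part of such cells in the Eln values was not tested.

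Fbn2, the fibrillin of fetal microfibrils, read 10.72, 10.85 and 10.69 in mutant hearts, against 10.77, 11.09 and 10.52 in WT hearts, where WT replicate 2 was again highest and the genotypes overlapped. Its differences were -0.04 and, by another probe set, 0.25. Mfap4, a microfibril glycoprotein, had 0.46 (SE 0.18, adjusted p = 0.272 by limma), and WT replicate 3 was the lowest at 7.54. Mfap5 had 0.28 and Mfap2 had 0.09, both proteins of fibrillin microfibrils. Of the lysyl oxidases, Lox had 0.33 (SE 0.11, adjusted p = 0.207 by limma), repeated at 0.31 by its other probe set above the level, and Loxl1 had 0.07.

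Of 6 fibronectin and matricellular genes, 0 passed in either direction. Postn encodes periostin, a product of valve cells and cardiac fibroblasts. It read 12.64, 12.61 and 12.65 in mutant hearts, against 12.51, 12.71 and 12.64 in WT hearts. The genotypes overlapped, and the interval of the difference ran from -0.11 to 0.13 (0.01, SE 0.05). Thbs2, a thrombospondin, had -0.01 (95% confidence interval -0.19 to 0.17). Thbs1 read 8.49, 8.87 and 8.77 in mutant hearts, against 8.73, 8.70 and 8.43 in WT hearts, and its probe sets had 0.09 and -0.14.

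Sparc, which encodes a collagen-binding matricellular protein, had 0.15 (SE 0.05, adjusted p = 0.22 by limma). Tnc, which encodes tenascin-C, had 0.30 (SE 0.11, adjusted p = 0.233 by limma). By the main probe set of each gene every mutant value lay above every WT value. The other two Sparc probe sets above the level had 0.07 and 0.01 with overlapping genotypes. Fn1, which encodes fibronectin, had 0.22 (SE 0.10, adjusted p = 0.331 by limma) with overlapping genotypes.

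The genes that mark the matrix-producing cells had small differences. Pdgfra, the receptor that defines cardiac fibroblasts, read 10.22, 10.16 and 10.32 in mutant hearts, against 10.40, 10.18 and 10.18 in WT hearts. Its difference was -0.02 (95% confidence interval -0.22 to 0.17), and another probe set had -0.01. Sox9, a transcription factor of valve progenitors, was close to the level, at 6.53 ± 0.17 in mutant hearts and 6.43 ± 0.24 in WT hearts (SD, n = 3 each). Scx, a tendon and valve factor, and Tnmd, a tendon gene, lay below the level with means of 6.08 and 5.09 in mutant hearts and 5.87 and 4.62 in WT hearts, and they give no comparison.

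Among 5 proteases and inhibitors, Timp1 rose. It encodes an inhibitor of metalloproteinases and is read by a single probe set. It read 8.78, 8.75 and 8.54 in mutant hearts, against 8.16, 7.99 and 8.00 in WT hearts. The lowest mutant heart, replicate 3, was above the highest WT heart. The difference was 0.64 (SE 0.10, 1.56-fold, adjusted p = 0.0217). Timp3, a matrix-bound inhibitor, had -0.11, and all 4 of its probe sets above the level were negative (-0.32 to -0.11), with WT replicate 2 highest on the main one at 10.97. Over the 6 fits that left out 1 array the Timp3 difference ran from -0.19 to 0.02, the latter without WT replicate 2. Timp2, not one of the 35 genes, had 0.26 (SE 0.07, adjusted p = 0.0996 by limma), and Timp4 was below the level.

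The proteases did not pass. Mmp2, a gelatinase, had 0.29 (SE 0.11, adjusted p = 0.272 by limma), and 0.19 by another probe set. Adamts1 and Adamts5, which cut versican, had 0.16 and 0.13 by their main probe sets, and in both the genotypes did not overlap. Adamts5 read 8.28, 7.99 and 8.02 in mutant hearts, against 7.99, 7.94 and 7.98 in WT hearts, so that only mutant replicate 1 stood clear. Its other probe sets above the level had 0.42 and 0.06.

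Over all genes of the list, 19 had more than 1 probe set above the level. In 8 of these the probe sets differed in sign or by over 0.3 log2 units (Dcn, Fmod, Vcan, Fbln1, Eln, Fbn2, Thbs1 and Adamts5), and in 5 the signs differed. Of 61 probe sets of the list in the fit of every probe set, 5 were called higher (8.2%, against 0.88% of all 19762), and they were 2 of Vcan and 1 each of Bgn, Fbln2 and Timp1.

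**Figure D3:**
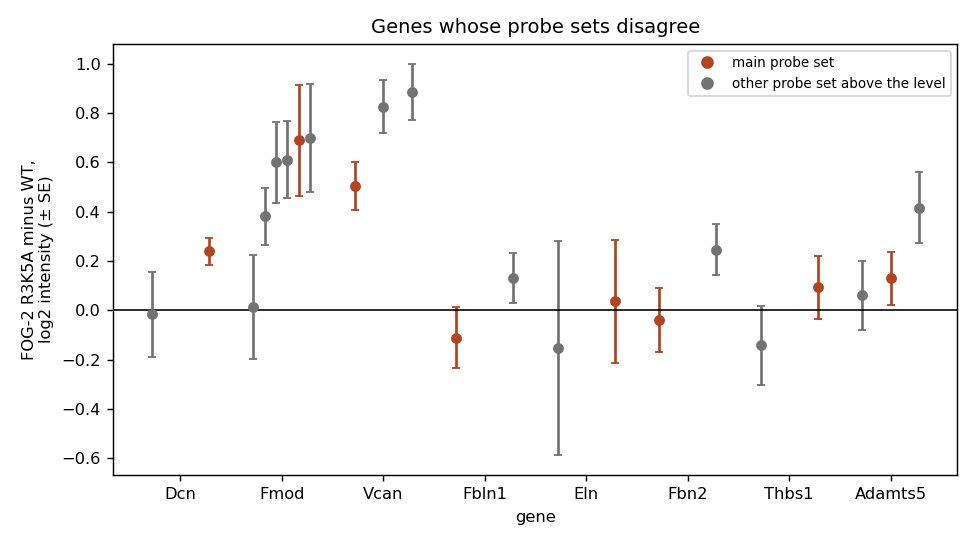
Difference in log2 intensity, mutant (FOG-2 R3K5A) minus WT, ± SE for every probe set above the filter level of the 8 genes whose probe sets differ in sign or by over 0.3, with the main probe set coloured. All 3 Vcan probe sets lie above 0.5, while those of Dcn, Fbln1, Eln, Fbn2 and Thbs1 lie on both sides of 0.

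The calls depended on single arrays. Without WT replicate 1, all 4 were kept and Fmod and Hapln1 joined them, 6 of 31 (19.4%, against 2.49% of all tested genes higher and 1.57% lower). Bgn alone was called without WT replicate 2, Timp1 alone without mutant replicate 3, and 0 genes of the list without mutant replicate 1, mutant replicate 2 or WT replicate 3. Calls fell over the whole array too: in these fits 0.27% to 0.684% of all tested genes were called higher, against 1.39% with all arrays. Over all 6 fits that left out 1 array the difference stayed at 0.32 to 0.37 for Bgn, 0.42 to 0.55 for Fbln2, 0.44 to 0.62 for Vcan and 0.59 to 0.71 for Timp1.

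By array, the median deviation of the 31 genes from their own means was 0.12, 0.11 and 0.07 in mutant replicates 1 to 3 and -0.04, -0.04 and -0.23 in WT replicates 1 to 3. WT replicate 3 was thus the lowest heart, with 4 of 31 genes above their own mean, against 9 in WT replicate 1 and 13 in WT replicate 2. In the mutants 27, 20 and 19 genes were above their mean. Over all tested genes the same medians lay between -0.02 and 0.02.

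**Figure D4:**
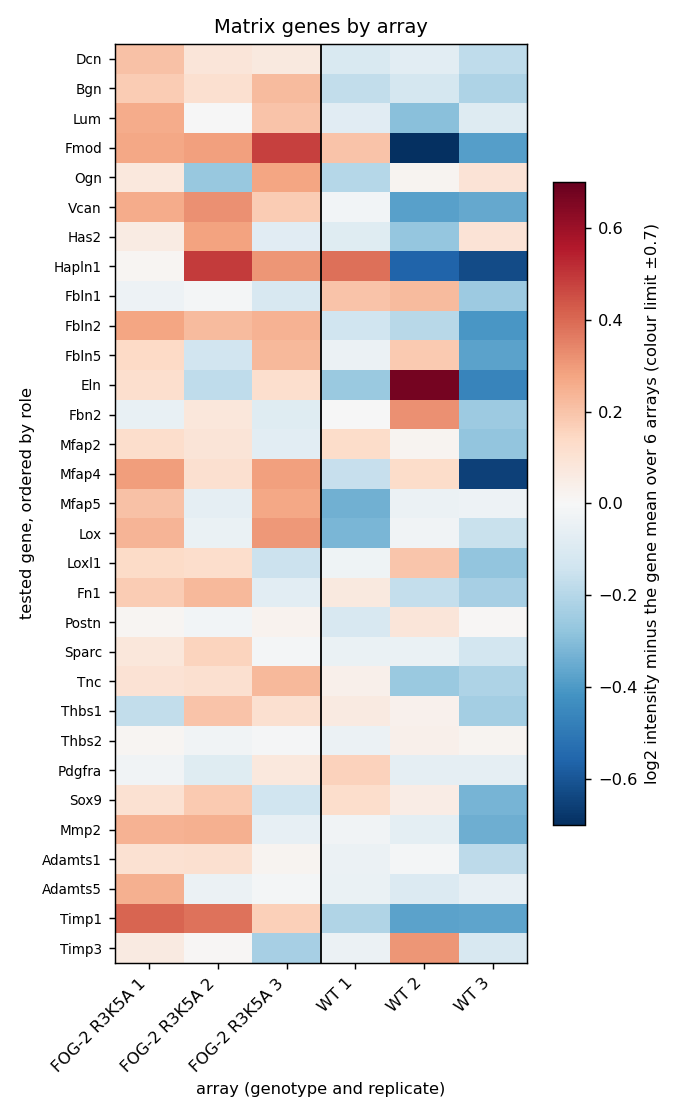
Log2 intensity of the 31 tested matrix genes minus each gene's mean over the 6 arrays, with mutant (FOG-2 R3K5A) arrays left of WT arrays and red above the mean. WT replicate 3 is below the mean for 27 of 31 genes, WT replicate 2 is high for Eln, Fbn2 and Timp3, and WT replicate 1 is high for Fmod and Hapln1.

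Bgn and Timp1 lie on the X chromosome, and the labels give no sex. Xist, the RNA of the silenced X chromosome, read 11.90, 11.72 and 10.82 in mutant hearts, against 11.58, 12.03 and 12.12 in WT hearts. The Y-linked Eif2s3y read 8.95, 9.34 and 10.30 in mutant hearts, against 9.69, 8.77 and 8.86 in WT hearts. Every sample thus read both Xist and Eif2s3y above the filter level of 6.30. Kdm5d, also Y-linked, read 6.53, 6.70 and 7.82 in mutant hearts, against 7.60, 6.02 and 6.25 in WT hearts. It lay below that level in WT replicates 2 and 3. Whether a sample held hearts of both sexes was not tested. With the Xist level as a covariate 0 of the 31 genes were called, where 0.324% of all tested genes were called higher. The differences were 0.32 for Bgn, 0.47 for Fbln2, 0.48 for Vcan and 0.69 for Timp1 (adjusted p = 0.0841 to 0.179 by limma).

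Matrix genes outside the list were tested in the same fit. Of 67 other matrix genes tested, 44 were positive, 4 were called higher and 1 was called lower, with a median difference of 0.10. Over all tested genes 47.2% were positive, 1.39% were called higher and 0.369% lower. Nid2, a basement membrane linker, rose by 0.68 (SE 0.08, adjusted p = 0.00435), Cthrc1, a secreted matrix protein, by 0.57 (SE 0.10, adjusted p = 0.0304) and Sdc4, a cell-surface proteoglycan, by 1.35 (SE 0.19, adjusted p = 0.0113). Its relative Sdc2 fell by 1.08 on the log2 scale (SE 0.12, adjusted p = 0.00481). Of 19 collagen genes 12 were positive and 0 passed, with differences from -0.26 to 0.53 and a median of 0.04. Among the fibrillar collagens Col1a1 and Col3a1 each had -0.02 and Col1a2 had 0.14. Col12a1 had 0.53 (SE 0.13, adjusted p = 0.0812 by limma) and Col14a1 had 0.29. In these 2 and Col1a2, of the 19, every mutant value lay above every WT value, as in 11.5% of all tested genes. Of 9 other elastic fibre genes 8 were positive and 0 passed, among them Efemp1, a fibulin relative, at 0.66 (adjusted p = 0.0583 by limma). Of 14 other proteases and inhibitors 0 passed.

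Cell type markers were read on the same arrays. All 10 cardiomyocyte markers and all 9 fibroblast markers were above the level, as were 6 of 9 valve mesenchyme markers (Scx, Twist1 and Msx2 were below it). Of the cardiomyocyte markers 7 of 10 were positive and 0 passed, with summed intensities of 95834 to 96804 in mutant hearts and 90568 to 93004 in WT hearts. The fibroblast markers include Dcn, Pdgfra and Postn of the matrix list, and the valve markers Sox9, Scx and Hapln1, so these counts reuse values given above. Of the fibroblast markers 4 of 9 were positive and 0 passed, with summed intensities of 31712 to 33860 in mutant hearts and 29867 to 32845 in WT hearts, which overlapped. Of the 6 valve markers 4 were positive, with a median difference of 0.09. At the adjusted threshold 0 rose and 1, Tbx20, fell by 0.38 on the log2 scale. The sum, which Tbx20 dominates, was 3736 to 4251 in mutant hearts and 4592 to 5087 in WT hearts. Of 12 epicardial markers 9 were positive, 7 rose and 0 fell. Krt18 rose by 1.54, Krt8 by 1.42, Msln by 0.98, Krt19 by 0.93, Upk3b by 0.50 and Gpm6a by 0.47. Muc16, below the level in WT hearts, rose by 0.92. The negative ones were Wt1 (-0.06), Tbx18 (-0.11) and Aldh1a2 (-0.22). The sum of the 12 was 7736 to 8497 in mutant hearts and 5829 to 6184 in WT hearts.

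Of 8 endothelial markers 1, Vwf, rose by 0.92, with sums of 10521 to 11111 in mutant hearts and 9469 to 10438 in WT hearts. Of 6 tested macrophage markers 0 passed (sums of 2149 to 2322 in mutant hearts and 1748 to 2146 in WT hearts). Of 6 smooth muscle and mural cell markers 0 passed (sums, mostly Acta2, of 14415 to 15610 in mutant hearts and 14315 to 14626 in WT hearts). Of 8 lung and airway markers 3 were above the level and 0 passed, with sums of 167 to 3440 in mutant hearts and 165 to 265 in WT hearts. Scgb3a2, a secretoglobin, read 9.03, 4.87 and 11.36 in mutant hearts and 4.83, 4.81 and 5.40 in WT hearts. Only 1 of 8 cartilage and tendon markers was above the level. Of 6 skeletal muscle markers 2 were above the level. Both fell, Tnni2 by 1.04 and Casq1 by 0.41 on the log2 scale (sums of 1175 to 1423 in mutant hearts and 1754 to 1845 in WT hearts). Myod1, Myog, Tnnt3 and Actn3 were below the level. The part of these other cells in the rises of Bgn, Fbln2, Vcan and Timp1 was not tested.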

How the data were processed

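Total RNA of whole hearts was labelled with biotin and hybridised to Affymetrix arrays, per the labels' protocols. The authors' deposited intensities are linear values per probe set, with array medians that differ by only 0.12 log2 units, so some scaling had been done. Its method is not given in the sources used here. Detection calls were not used, and precision is limited by the number of arrays.

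Of 45101 probe sets, 64 are array controls, and the platform annotation gave 1 symbol to 34945 of the rest, several to 932 and none to 9160. Sequences and symbols are from RefSeq tables of GRCm38.p6. Intensities were set to a floor of 1 (16 values were below it) and log2-transformed. For each gene the brightest probe set on average was used, and genes above the median of all probe set means were tested. The test was limma 3.58.1 under R 4.3.3 (lmFit, eBayes with an intensity trend, two-sided), with Benjamini-Hochberg adjustment over all genes tested. The fit was tested on simulated data.

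The genes, the lists, the tests and the rule for naming genes were chosen with earlier results of these data known. The rule names all genes of the list. It gives every array's value for called genes, for those that do not overlap between genotypes at an unadjusted p under 0.01 and for those whose probe sets disagree in sign or by over 0.3. Of other lists it names called genes. The array values of Hapln1, Postn, Pdgfra, Myh11, Rgs5, Cspg4, Acta2, Xist, Eif2s3y, Kdm5d and Scgb3a2, and the uncalled genes named from other lists, were picked after their values were seen.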

Additional observations from a re-analysis of the deposited data

How the results depend on the processing

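All 16 alternatives left the median difference over the matrix genes positive (0.13 to 0.20), and none changed the sign of a called gene. The sign changed in 34 of 489 recomputed values, over 12 genes that were never called and whose difference in the main fit was at most 0.11 in size. With the mean over probe sets, which takes in those below the filter level, some reversed values were larger: Sox9 had -0.62 and Mfap2 had -0.45. A probe set below the level had -2.11 for Sox9, and another had -0.99 for Mfap2. Their main probe sets had 0.10 and 0.09. The number of matrix genes called higher was 4 with quantile normalization, median centring or an offset of 16, 3 with the filter at the upper quartile, 5 with array quality weights (Dcn added, adjusted p = 0.0295), 1 without the filter, with the mean over probe sets or without the intensity trend, 0 with the Xist covariate, and 0 to 6 when 1 array was left out. It was 0 lower in all of them. With the mean over probe sets Fbln2 had 0.13, the average of 0.50 and the -0.23 of its other probe set. The main fit did not pair samples by replicate number. Deviations of same-numbered samples correlated at -0.06, 0.13 and 0.41, and those of differently numbered ones at -0.32 to 0.25. With only 3 same-numbered pairs, these values cannot tell whether the numbers pair the samples. With the replicate block 5 genes were called, Lum (adjusted p = 0.0414) joining the other 4, and 234 genes in all. Genes called over the whole array numbered 196, and 81 without the filter, 106 with the filter at the upper quartile, 126 with the mean over probe sets, 119 without the intensity trend, 429 with array quality weights, 43 with the Xist covariate and 37 (without mutant replicate 1) to 451 (without WT replicate 1) when 1 array was left out. Genes near the filter level, such as Has2, Hapln1 and Sox9, were read with the least signal over background.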
